A study of Gallus gallus with 2 samples.

Results

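The genes described here are 5 EphA receptors, EPHA3, EPHA4, EPHA5, EPHA7 and EPHA8, and 2 ephrin-A ligands, EFNA2 and EFNA5. They were taken by gene name, without regard to their values, from a single-cell count matrix of 30108 chicken genes, and all 7 had an entry. The matrix covered 15190 cells from wild-type chick cerebellum, dissected on embryonic days 6, 7, 8 and 9 (named E6, E7, E8 and E9). The series asks how Purkinje cells, whose axons are the sole output of the cerebellar cortex, differ from one another. All cells were untreated, and dissected tissue was pooled, so each stage was read as 1 pool of embryos. The 2 sublibraries listed as samples split the same pooled material. The labels do not say whether the 3 first-round barcoding wells of each stage held separate embryos, so the wells were taken as parts of 1 pool. Both were read as measures of technical spread only. For that reason no test between stages or cell types was made. Intervals are exact 95% intervals of counting error, and differences between embryos, dissections or dissociations cannot be told apart from differences between stages.

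EphA receptors are receptor tyrosine kinases that bind ephrin-A proteins, which are held on the surface of neighbouring cells by a lipid anchor. Binding can signal into both cells, and is best known for repelling growing axons, for sorting cells into compartments and for the map of retinal axons in the chick optic tectum. In the embryonic chick cerebellum these receptors and ligands are known from staining to lie in parasagittal stripes of Purkinje cells, where they have been studied in the mapping of olivocerebellar axons. Counts of RNA show which cells hold the transcripts, not where the protein lies or whether a receptor is bound.

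The members sit on 7 different chromosomes of the GRCg7b assembly, with positions from the RefSeq gene table. EPHA3 (ENSGALG00010006244) spans 89382956 to 89604171 on chromosome 1, and EPHA4 (ENSGALG00010025364) 7293674 to 7542291 on chromosome 9. EPHA5 (ENSGALG00010005178) spans 50557808 to 50759238 on chromosome 4, and EPHA7 (ENSGALG00010004127) 73598654 to 73758206 on chromosome 3. EPHA8 (ENSGALG00010016929) lies at 6099437 to 6157522 on chromosome 21, EFNA2 (ENSGALG00010028029) at 3547336 to 3578880 on chromosome 28, and EFNA5 (ENSGALG00010010266) at 48721421 to 48928978 on the sex chromosome Z. All but EPHA8 gave enough counts to be followed in the larger cell classes, while EFNA2, EPHA4 and EPHA7 had few in endothelial or mural cells at late stages. Over all cells, EPHA5 gave 131057 unique molecular identifiers (UMIs, each 1 captured transcript), EPHA3 105659, EFNA5 87501, EPHA7 42804, EPHA4 35515 and EFNA2 11716. EPHA8 gave 366 UMIs, with at least 1 in 1.659% of cells, so most of its values rest on few counts.

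Depth differed between stages. E7 held 7648 cells with a median of 6047 UMIs per cell, against 2478 to 2576 cells and medians of 3025.5 to 3310 at the other stages. Levels are therefore given in CPM, the summed UMIs of a gene per 1000000 UMIs of the same cells, and every cell was cut to 1000 randomly drawn UMIs before shares of cells were counted. Priming and gene length make levels of different genes unfit for comparison, so each gene is compared only with itself across cells. The 2 sublibraries shared 896 cell barcodes.

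Cells were assigned by marker genes that are not members of the family. A cell was called Purkinje-gated when at least 3 of 11 Purkinje markers were each at 2 times their level over all cells or more, and no other gate was passed. This gave 3407 Purkinje-gated cells (E6 477, E7 2222, E8 431, E9 277), beside 2255 radial, 889 granule, 870 glutamatergic nuclear, 577 PAX2 (interneuron lineage), 302 ROBO3 (newborn neuron), 177 mural or mesenchymal, 92 endothelial, 71 microglial and 45 erythroid cells. A further 4318 cells passed no gate and 2187 passed several. GAD2, an enzyme of GABA synthesis that Purkinje cells express and the gate did not use, stood at 976.7 CPM in Purkinje-gated cells, where the glutamate transporter SLC17A6 stood at 10.09 CPM. PAX2 cells held GAD2 at 727.2 CPM and ROBO3 cells at 426 CPM, so it does not by itself set Purkinje-gated cells apart from the interneuron lineage. In glutamatergic nuclear cells SLC17A6 stood at 381.9 CPM, but it is a marker of that gate and so no separate check. GAD2, which that gate did not use, stood at 276 CPM there. The edge of the Purkinje gate was not sharp, since 1237 cells of the class had exactly 3 markers and 1831 cells had 2. No doublet caller was run. Leaving out cells that passed several gates, whose median depth was 7070 UMIs, removes part of the doublets and doublets of like cells remain. The 45 erythroid cells, with a median of 1093 UMIs, carried GAD2 at 502.6 CPM and every member but EPHA8, and are not interpreted further.

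EPHA5 and EPHA7 moved in opposite directions in Purkinje-gated cells between E6 and E9. EPHA5, a receptor widely found on axons of the developing brain, was 6.835-fold lower at E9 than at E6, while EPHA7 was 8.154-fold higher. The ligand EFNA2 was also lower, and EPHA3, EPHA4 and EFNA5 differed by less than 2-fold between the first and last stage.

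At E6 the 3 wells held EPHA5 at 6852, 6710 and 6912 CPM in Purkinje-gated cells. By E7 these values were 2065, 1899 and 2058 CPM, by E8 1153, 937 and 1102 CPM, and by E9 1260, 822.6 and 972 CPM. The E6 wells stood far above all others and the E7 wells above the later ones, whereas the E8 and E9 wells overlapped. Summed over wells, E6 stood at 6824 CPM (6698 to 6952) and E9 at 998.4 CPM (942.8 to 1056). This is a log2 ratio of -2.77 (-2.86 to -2.69) for E9 over E6. The sublibraries gave -2.96 and -2.64. Most of the drop lay between E6 and E7, with a log2 ratio of -1.76, followed by -0.92 from E7 to E8 and -0.09 from E8 to E9. After thinning, an EPHA5 UMI was found in 96.41% of E6 Purkinje-gated cells, in 67.6% of those of E7, and in 43.33% and 46.32% of those of E8 and E9.

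EPHA7, which in other vertebrates is also made in a shortened form without a kinase that these counts cannot tell from the full receptor, was at its lowest in Purkinje-gated cells when EPHA5 was at its highest. Wells of E6 held 126.3, 130.4 and 145.7 CPM, and those of E7 294.1, 305.6 and 249.7 CPM. At E8 the values were 999.7, 685.2 and 846.9 CPM, and at E9 1631, 637.4 and 1128 CPM. Each stage up to E8 lay above the one before in every well, and E9 overlapped with E8 because its wells were spread widely. Summed over wells, E6 stood at 134 CPM (116.9 to 153) and E9 at 1093 CPM (1035 to 1154), which makes a log2 ratio of 3.03 (2.82 to 3.24), with 2.94 and 3.05 in the sublibraries. Without the E9 well of 1631 CPM it was 2.73. Thinned shares of Purkinje-gated cells with an EPHA7 UMI were 8.879% for E6, 15.35% for E7, 28.33% for E8 and 37.13% for E9.

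**Figure D1:**
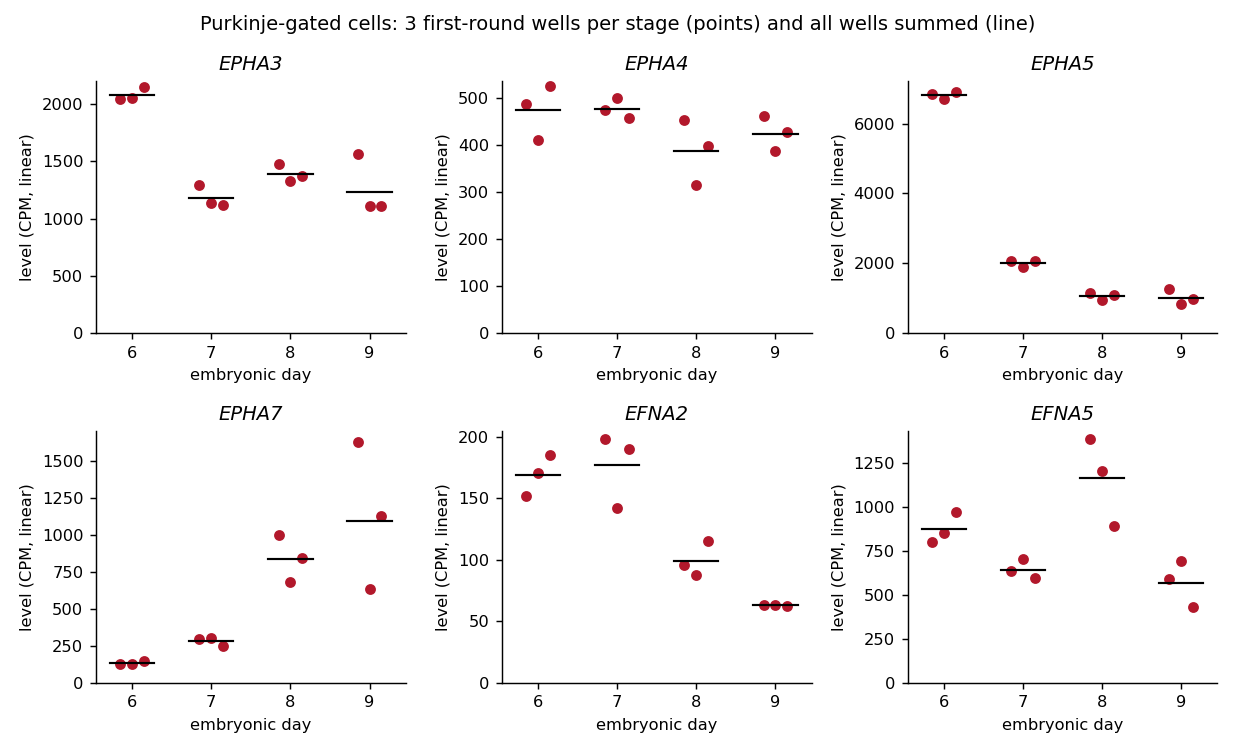
Level in CPM (vertical axis, from 0) of 6 members in Purkinje-gated cells at E6 to E9 (horizontal axis). Points are the 3 first-round wells of a stage, taken as parts of 1 pool, and a short line at each stage marks the level over all wells. EPHA5 goes from 6824 to 998.4 CPM while EPHA7 goes from 134 to 1093 CPM, and the E9 wells of EPHA7 are the most spread.

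EPHA3, the receptor known in the chick for its graded level across the retina, was highest in Purkinje-gated cells at E6. Its E6 wells held 2046, 2050 and 2149 CPM and its E7 wells 1297, 1138 and 1120 CPM. The E8 wells held 1473, 1328 and 1373 CPM, and the E9 wells 1565, 1106 and 1106 CPM. The E6 wells lay above every later well, the E8 wells lay above those of E7, and the E9 wells spanned both. E8 over E7 was 0.46 on the log2 scale in sublibrary 1 and -0.018 in sublibrary 2, so the higher E8 level came from 1 sublibrary. E9 over E6 had a log2 ratio of -0.76 (-0.84 to -0.67), or 1.689-fold lower, and the drop came between E6 and E7, with a log2 ratio of -0.81.

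EPHA4, a receptor that also binds ephrin-B ligands, varied least with stage of the 6 members that could be followed in Purkinje-gated cells. The E6 wells ran from 409.6 to 525.1 CPM, those of E7 from 457.2 to 499.7, those of E8 from 315.2 to 453 and those of E9 from 386.7 to 461.4. The E8 wells lay just below those of E7, and all other ranges overlapped. E9 over E6 had a log2 ratio of -0.17 (-0.33 to -0.0033), which is close to the median of -0.22 over all genes in this comparison.

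EPHA8, a receptor known in the mouse from the midbrain, was hardly seen in Purkinje-gated cells. It gave 0 UMIs at E6 and at E8, 20 at E7 and 6 at E9. In the thinned counts it was found in 0 of the E6 cells, which allows a share of up to 0.6342%, and no ratio between E6 and E9 can be given.

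Of the ligands, EFNA2, an ephrin-A known from the tectal map, was lower at the later stages. Its wells in Purkinje-gated cells held 151.6, 170.8 and 185 CPM at E6 and 198.3, 141.9 and 190.3 CPM at E7. They then held 95.64, 87.36 and 115.5 CPM for E8 and 63.32, 63.27 and 62.57 CPM for E9. E6 and E7 overlapped, E8 lay below both and E9 below E8 in every well. E9 over E6 had a log2 ratio of -1.42 (-1.81 to -1.05), with -1.24 and -1.59 in the sublibraries.

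EFNA5, an ephrin-A ligand known in the chick tectum as a repellent of retinal axons, followed no single direction. Its wells in Purkinje-gated cells held 803, 855.9 and 975.4 CPM at E6 and 638, 702.3 and 598.8 CPM at E7. For E8 they held 1388, 1204 and 894.6 CPM, and for E9 591, 691.3 and 433.5 CPM. E7 and E9 were low and overlapped, E6 lay above both, and E8 was the highest stage, its lowest well falling within the E6 range. The log2 ratios of successive stages were -0.44, 0.85 and -1.03, and that of E9 over E6 was -0.63 (-0.76 to -0.49). In Purkinje-gated cells without a transcript of the 4 W genes described below, E9 over E6 was -0.55. Only 43 W UMIs were found in the 277 cells of E9 and 5 in the 477 of E6. Few cells were thus left out, and the ratio could hardly move.

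Against all genes, shifts of 2-fold or more were not rare, and the share of genes that moved as far as EPHA5 or EPHA7 was not counted. Of 4069 genes with at least 100 UMIs in the Purkinje-gated cells of E6 and E9 together, 376 (9.24%) were 2-fold or more higher at E9 and 403 (9.9%) were 2-fold or more lower. Among the 6 members with enough UMIs, 1 was 2-fold or more higher (EPHA7) and 2 were lower (EPHA5 and EFNA2). Purkinje-gated cells at different stages also came from different clusters, as described below, so a change within cells and a change in which cells passed the gate cannot be told apart.

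Outside the Purkinje lineage, some of these courses recurred and others did not. EPHA5 was lower at the last stage in each of the other large classes. In radial cells, the progenitors and glia of the ventricular zone, E6 stood at 940.1 CPM (894.2 to 987.7) with wells from 818.1 to 1010, and E9 at 141.4 CPM (122.5 to 162.5) with wells from 102.1 to 175.3. The log2 ratio was -2.73. Granule cells, the small excitatory neurons of the cortex and their precursors, numbered only 20 at E6 and were compared from E7. Their EPHA5 wells ran from 1031 to 1170 CPM at E7, from 59.51 to 352.1 at E8 and from 59.78 to 112.4 at E9, with no overlap between E7 and the later stages. The log2 ratio of E9 over E7 was -3.79 (-4.08 to -3.51), or 13.81-fold lower. Its size depended on the gate, with -2.72 for 1 fewer marker and -2.10 for clusters in place of gates, where the E7 level of EPHA5 was 286.5 CPM. Glutamatergic nuclear cells, which build the excitatory part of the cerebellar nuclei, went from 1094 CPM at E6 to 502.3 at E9, and PAX2 cells from 2428 to 678.9. Only 43 PAX2 cells were from E6.

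EPHA7 did not share that course between classes. Radial cells held it at 291.8, 194.9 and 370.7 CPM in the E6 wells and at 84.68, 104.4 and 139.9 in the E9 wells, which do not overlap, and the log2 ratio was -1.33 (-1.60 to -1.07; -0.91 with 1 more marker) where Purkinje-gated cells had 3.03. In granule cells it was high throughout, with 726.7, 1411 and 1220 CPM from E7 to E9. In glutamatergic nuclear cells it went from 570.2 CPM at E6 to 838.7 at E9. In PAX2 cells it stayed between 125.9 and 172.8 CPM, the lower value from 43 cells of E6.

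EPHA3 was lowest at E6 in glutamatergic nuclear cells. There the E6 wells held 217.3, 207.3 and 259.3 CPM and the E7 wells 546.9, 543.7 and 552.7 CPM. The E8 wells held 1002, 780.8 and 846.5 CPM, and the E9 wells 692.8, 816.3 and 471.8 CPM. The E6 wells lay below all later ones, and E9 over E6 had a log2 ratio of 1.52 (1.27 to 1.77). The sublibraries differed in its size, at 0.77 and 2.01, and only 88 of these cells were from E9. With clusters in place of gates the ratio was 0.49, so that its passing 2-fold rests on the gate and on sublibrary 2. In radial cells EPHA3 stood at 1269, 1358 and 1562 CPM from E6 to E8 and at 803.8 CPM at E9. Granule cells held it at 1038, 2102 and 1515 CPM from E7 to E9, and PAX2 cells at 570.5, 808 and 493.7 CPM. A higher level at E8 than at E7 was thus not particular to glutamatergic nuclear cells.

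EFNA5 was highest at E6 in radial, glutamatergic nuclear and PAX2 cells. In radial cells its wells held 1925, 1655 and 1587 CPM at E6 and 256.5, 389.9 and 266.7 at E9, far apart, with a log2 ratio of -2.51 (-2.66 to -2.36). From E6 to E9 glutamatergic nuclear cells held 3261, 907.2, 1634 and 1166 CPM, and PAX2 cells 3174, 908.3, 1278 and 715.9 CPM. In both classes, as in Purkinje-gated cells, E7 lay below E8. The E6 value of PAX2 cells came from 43 cells, whose wells held 2066, 2988 and 4611 CPM. Over all cells the E6 to E9 levels of EFNA5 were 2232, 689.8, 1057 and 661.6 CPM.

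EFNA2 was lower at E9 than at E6 in radial cells, at 40.51 against 159.5 CPM, and in glutamatergic nuclear cells, at 32.71 against 131.2 CPM. EPHA4 went from 422.3 to 290.7 CPM in radial cells and from 353.4 CPM at E7 to 122.2 at E9 in granule cells, where Purkinje-gated cells kept 422.1 CPM at E9. EPHA8 was scarce in each class until E8 and E9, where glutamatergic nuclear cells held it at 21.85 and 23.36 CPM, from 14 and 10 UMIs. In granule cells it gave 8 UMIs at E7 (1.915 CPM), 6 at E8 (8.551 CPM) and 75 at E9 (56.23 CPM, 44.23 to 70.48). The E9 wells held 37.56, 43.25 and 77.9 CPM, each above every E8 well, the highest of which held 11.22. Among granule cells of E9, those with fewer than 3 of 8 cell-cycle markers on held 76.26 CPM and dividing ones 7.697 CPM, the latter from 3 UMIs. In the thinned counts 4.688% of E9 granule cells (median 3738 UMIs) had an EPHA8 UMI (13.08% before thinning). Among E9 Purkinje-gated cells (median 3903 UMIs) the share was 2.166% before thinning, and 0 after it, which allows up to 1.103% at that depth.

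**Figure D2:**
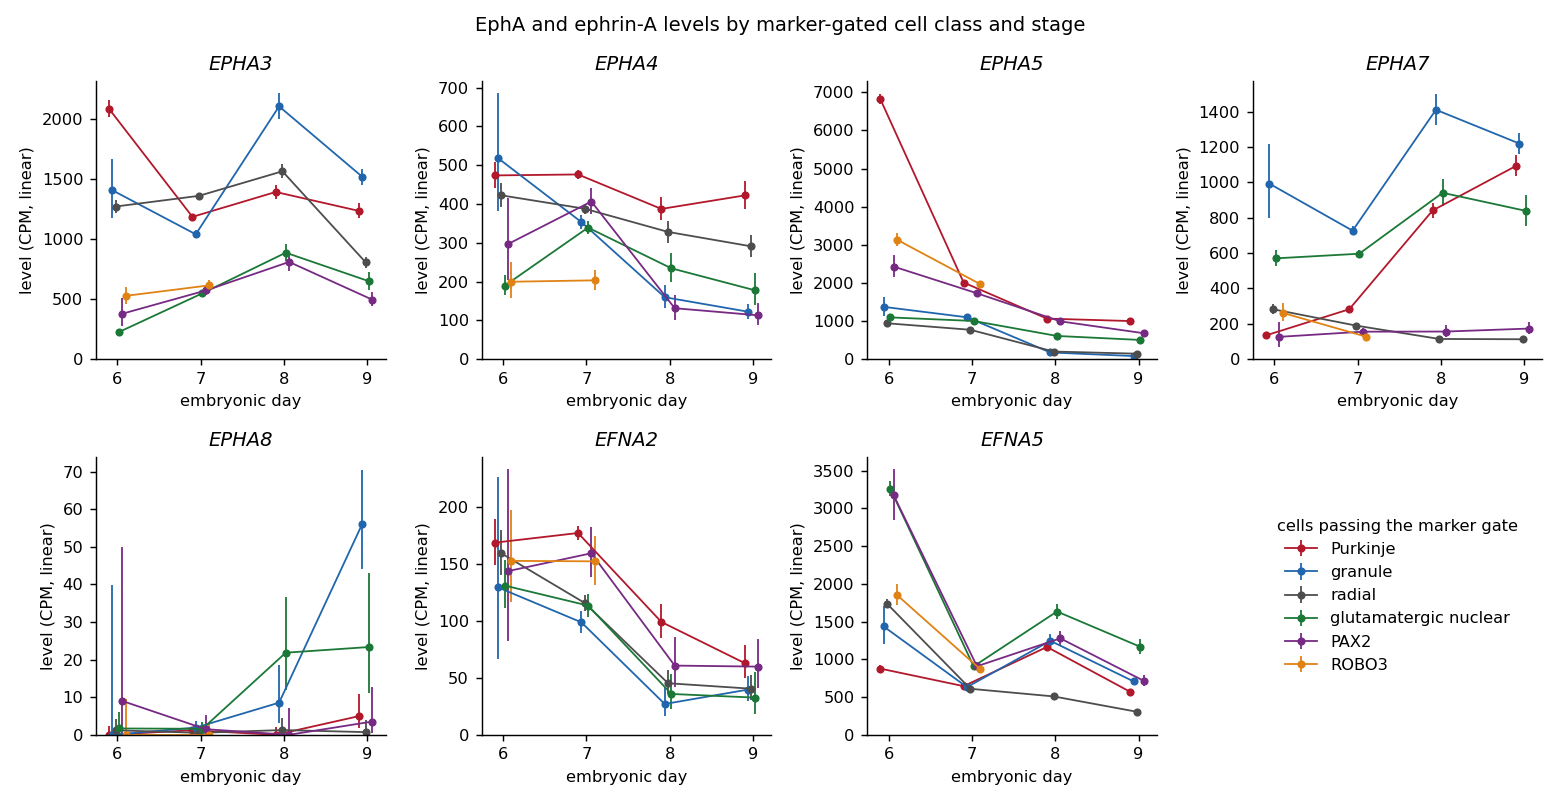
Level in CPM (vertical axis) of each of the 7 members by embryonic day (horizontal axis) in 6 gated classes, with bars for exact 95% Poisson intervals; ROBO3 cells are drawn for E6 and E7 only. EPHA5 goes down in each class drawn, EPHA7 goes up in Purkinje-gated and down in radial cells, and EPHA8 appears in granule cells at E9 (56.23 CPM).

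The members were set against all genes of each class. In radial cells, 4 of 6 members (EPHA5, EPHA7, EFNA2 and EFNA5) were 2-fold or more lower at E9 than at E6, against 4.72% of 5026 genes, and 0 were 2-fold or more higher, against 7.76%. In glutamatergic nuclear cells 3 of 6 (EPHA5, EFNA2 and EFNA5) were lower, against 9.22% of 2983 genes, and 1 (EPHA3) was higher, against 7.91%. Granule cells from E7 to E9 had 3 of 6 (EPHA4, EPHA5 and EFNA2) lower, against 10.4% of 6937 genes, and 0 higher, against 3.7%; EPHA8 did not reach 100 UMIs there. With clusters in place of gates EFNA2 in granule cells had a log2 ratio of -0.76 and EPHA5 in glutamatergic nuclear cells of -0.49, short of 2-fold.

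The order of cell classes is given with stages summed, although classes differ in their share of each stage and the order differs between stages. EPHA5 was the member most raised in Purkinje-gated cells. It stood at 2250 CPM (2230 to 2270) there and at 1044 CPM in all other cells, 2.155-fold higher, though a gate with 1 more marker (log2 ratio 0.98) or on thinned counts (0.92) brought it below 2-fold. ROBO3 newborn neurons, at 2221 CPM (2151 to 2293), had an interval overlapping that of Purkinje-gated cells in this sum. Taken by stage, the levels were 6824 CPM in Purkinje-gated against 3133 CPM (2959 to 3315) in ROBO3 cells at E6, and 2009 against 1965 CPM (1890 to 2043) at E7. PAX2 cells followed at 1372 CPM, glutamatergic nuclear at 947.1, granule at 783.2 and radial at 663.4, each interval apart from the next, and mural, microglial and endothelial cells lay lower, between 431.1 and 579.4 CPM. Granule cells stood above radial cells at E7 only, at 1097 against 769.2 CPM. They stood at 173.9 against 198.3 CPM at E8 and at 79.47 against 141.4 CPM at E9. With clusters in place of gates the E7 levels were 286.5 CPM in granule and 411.6 CPM in radial cells. The mural or mesenchymal class was not clean, with GAD2 at 281.9 and the microglial marker CSF1R at 232.1 CPM. Its E7 level of EPHA5 went from 777.7 to 192 CPM with a gate on thinned counts. EPHA4 was also highest in Purkinje-gated cells, at 465.8 CPM (456.6 to 475.1), ahead of radial cells at 375.6 (365.6 to 385.8). EFNA2 stood at 163.9 CPM (158.5 to 169.5) in Purkinje-gated and 152 CPM (134 to 171.7) in ROBO3 cells, whose intervals overlap, and at 16.51 CPM in endothelium.

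The other members had their highest levels elsewhere. Radial cells led for EPHA3 at 1315 CPM (1296 to 1334), with Purkinje-gated cells at 1272 and granule cells at 1263 overlapping just below, and endothelium last at 85.17. This order did not hold by stage: the highest single pools were granule cells of E8 (2102 CPM) and Purkinje-gated cells of E6 (2081 CPM), against 1562 and 1269 CPM in radial cells of those stages. EPHA7 was highest in granule cells at 911.1 CPM (887.7 to 934.9), ahead of glutamatergic nuclear cells at 640.4 and Purkinje-gated cells at 361.8, and lowest in endothelium at 23.77. EPHA8 was highest in granule cells at 14.12 CPM (11.34 to 17.37), ahead of glutamatergic nuclear cells at 4.961. Glutamatergic nuclear cells led for EFNA5 at 1415 CPM (1386 to 1443), followed by ROBO3 cells at 1091 and PAX2 cells at 1041. Granule, radial, Purkinje-gated and endothelial cells then lay close together between 684 and 727.9 CPM, and microglial cells were last at 134.8.

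Relative to all other cells, 1 of the 7 members (EPHA5) was 2-fold or more higher in Purkinje-gated cells, where 2.98% of 15361 genes were, and 1 (EPHA8) was 2-fold or more lower, where 19.4% were. EPHA8 reached the minimum of 100 UMIs through the other cells, so that its place among the lower genes was set by that minimum. The stages differed within this contrast. EPHA3 had a log2 ratio of 1.51 for Purkinje-gated over other cells at E6 and of 0.19 to 0.48 later. EPHA7 had -1.56, -0.43, 0.41 and 0.75 from E6 to E9, and EFNA5 from -1.52 at E6 to between -0.25 and 0.17 later. EPHA5 lay above other cells at each stage, with log2 ratios of 1.93, 0.81, 1.15 and 1.59 from E6 to E9, as did EPHA4, with 0.67, 0.39, 0.75 and 1.34.

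Shares of cells need a background, because free RNA can give a UMI to a cell that does not express a gene. Over all stages, thinned to 1000 UMIs, 54.97% of Purkinje-gated cells (median 4772 UMIs before thinning) had an EPHA3 UMI, 32.65% an EPHA4, 66.9% an EPHA5, 17.8% an EPHA7, 14.47% an EFNA2 and 36.17% an EFNA5 UMI. Before thinning these shares were 79.72%, 71.44%, 87.29%, 39.48%, 47.49% and 64.84%. Microglial cells, which should lack most of these genes (median 2865 UMIs), had 26.09% for EPHA3, 5.797% for EPHA4, 18.84% for EPHA5, 2.899% for EPHA7, 4.348% for EFNA2 and 10.14% for EFNA5. Endothelial cells (median 11171.5 UMIs) had 4.545%, 7.955%, 32.95%, 2.273%, 0 of the cells (up to 3.409%) and 43.18% in the same order. The EFNA5 share of endothelium lay above that of Purkinje-gated cells, so the share for EFNA5 is not read as the share of Purkinje cells that express it. For EPHA3, EPHA4, EPHA5, EPHA7 and EFNA2 the Purkinje-gated share lay above both. Microglial cells carried GAD2 at 314.5 CPM, against 36.97 CPM in endothelial cells. Whether free RNA or remaining doublets gave that microglial level was not tested.

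UMIs of receptor and ligand were often found in the same cell, also in endothelial and microglial cells. With 1000 UMIs per cell, 98.73% of E6 Purkinje-gated cells had a UMI of at least 1 of the 5 receptors, 50.11% of at least 1 of the 2 ligands and 49.26% of both. The share with both was 38.12% for E7, 28.81% for E8 and 22.06% for E9, and the share with neither went from 0.4228% to 12.87%. In radial cells the share with both went from 46.97% at E6 to 8.293% at E9. Over all stages 19.32% (11.68 to 29.12) of endothelial and 10.14% (4.177 to 19.79) of microglial cells had both. The Purkinje-gated intervals of E8 (24.52 to 33.4) and E9 (17.28 to 27.46) overlapped the endothelial one, and that of E9 also the microglial one. Endothelial cells held EFNA5 at 684 CPM, close to the 699.9 CPM of Purkinje-gated cells, so their share with both is not read as a background. The shares follow the levels of the genes and do not by themselves show that cells hold receptor and ligand more or less often than their levels imply.

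Within Purkinje-gated cells, EPHA3 and EFNA5 were found in different cells more than in the same ones, a pair singled out after the values had been seen. At E6, 53.4% (46.06 to 60.64) of the 191 cells with an EFNA5 UMI had an EPHA3 UMI, against 76.95% (71.59 to 81.74) of the 282 cells without. At E7 the shares were 38.78% (35.37 to 42.28) of 789 cells against 61.55% (58.97 to 64.08) of 1433. At E8 they were 32.94% (25.94 to 40.55) of 170 against 62.8% (56.48 to 68.81) of 250, and at E9 34.67% (24.04 to 46.54) of 75 against 58.88% (51.67 to 65.83) of 197. The gap was 22.77 to 29.86 percentage points at each stage, and the well ranges of cells with and without EFNA5 did not overlap at any stage. At E9, the closest, they ran from 19.23% to 45.45% and from 50% to 73.44%.

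**Figure D3:**
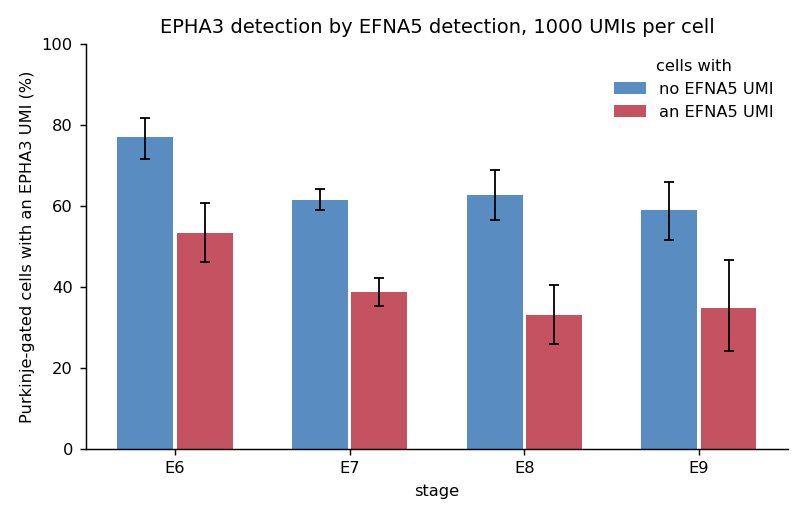
Share of Purkinje-gated cells with an EPHA3 UMI (vertical axis, percent, from 0) at E6 to E9 (horizontal axis), in cells with and without an EFNA5 UMI, all thinned to 1000 UMIs; error bars are exact 95% Clopper-Pearson intervals. At each stage the cells without EFNA5 have the higher share, for example 61.55% against 38.78% at E7.

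As a level in the thinned counts, EPHA3 had a log2 ratio of -1.03 (-1.16 to -0.90) in E7 Purkinje-gated cells with an EFNA5 UMI over those without. Among 3733 genes with enough UMIs, 0.643% were 2-fold or more lower and 0.134% 2-fold or more higher in this split, and of the 5 members that could be compared 1 was lower (EPHA3) and 0 higher. EPHA3 was the gene of rank 23 from the lowest at E7, and of rank 20 of 883 at E6, 4 of 708 at E8 and 7 of 436 at E9. Its log2 ratios were -0.80, -1.43 and -1.12 at E6, E8 and E9. Other receptors ranked lower than EPHA3 at some stages, with EPHA7 of rank 3 at E8 and EPHA5 of rank 2 at E9. At E7 EPHA7 was of rank 28, EPHA5 of 230 and EPHA4 of 333, and at E6 EPHA4 was of rank 28 and EPHA5 of 90. EPHA7 had log2 ratios of -0.95, -0.98, -1.64 and -0.60 from E6 to E9 in the same split, and EPHA4 of -0.76, -0.37, -1.08 and -0.81. EPHA5 had -0.44, -0.45, -1.001 and -1.58. The other ligand, EFNA2, had -0.29, 0.15, 0.37 and 0.07, with intervals that include 0 at each stage. The other genes at the low end at E7 included ADCY8, a calcium-sensitive adenylyl cyclase, at -1.67 and CNTN5, a neuronal adhesion protein, at -1.55.

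The gap between EPHA3 and EFNA5 was not a feature of Purkinje-gated cells alone. In radial cells the EPHA3 share with against without EFNA5 was 34.92% against 63.12% for E6 and 40.2% against 63.99% for E7, then 37.62% against 55.78% for E8 and 16% against 42.69% for E9. Granule cells showed it at E8, with 54.76% against 76.62%, and at E9, with 42.4% against 60.51%, but not at E7, with 51.16% against 47.67%. Splits of the E7 Purkinje-gated cells by another receptor went the other way. EPHA3 was found in 71.85% of cells with an EPHA7 UMI against 50.13% without, in 62.25% with EPHA4 against 48.87%, and in 58.59% with EPHA5 against 42.78%. The split by the other ligand, EFNA2, gave 47.31% (42 to 52.66) with against 54.63% (52.34 to 56.9) without at E7. The intervals of the EFNA2 split overlapped at each stage.

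Clusters of cells, made without the 7 members, showed where these patterns lie. Of the 29 clusters, 9 had Purkinje-gated cells as their largest gated class with a share of at least 25%, and each member's level varied several-fold between these 9. Cluster 5, with a share of 24.6%, was left out. EPHA3 ranged from 261.5 CPM in cluster 4, led by SPON1 and PAX5, to 2503 CPM in cluster 24, led by CNTN5, ADCY8, PCDH11X and CDH6. EFNA5 took the reverse places in those 2 clusters, with 1667 CPM in cluster 4 and 207.9 CPM in cluster 24. Not every cluster followed this. Cluster 3 was high in both, with EPHA3 at 1846 and EFNA5 at 1228 CPM, and cluster 26 was low in both, at 899.3 and 449.6 CPM. Only 39.69% of the cells of cluster 4 were Purkinje-gated, against 83.01% in cluster 24. Cluster 4 also had the highest PAX2 level of the 9, at 534.2 CPM against 66.64 CPM in cluster 24. It is therefore not read as a subset of Purkinje cells alone. EPHA4 was also highest in cluster 24, at 765.2 CPM, and lowest at 210.6 CPM in cluster 26, led by NR2F2 and SHISA6. EFNA2 ranged from 76.2 CPM in cluster 6 to 246.3 CPM in cluster 14, which is led by FOXP4 and CNTNAP5.

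The highest EPHA5 and EPHA7 lay in clusters of early and late cells. EPHA5 was highest at 6366 CPM in cluster 3, 732 of whose 739 cells came from E6, and this cluster also had the lowest EPHA7, at 123.7 CPM. EPHA7 was highest at 1287 CPM in cluster 6, which held 223 cells of E8 and 153 of E9. The lowest EPHA5, 926.8 CPM, was in cluster 14, 564 of whose 715 cells came from E7, where Purkinje-gated cells as a whole held 2009 CPM. Cluster 3 cannot be told apart from the E6 pool itself.

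**Figure D4:**
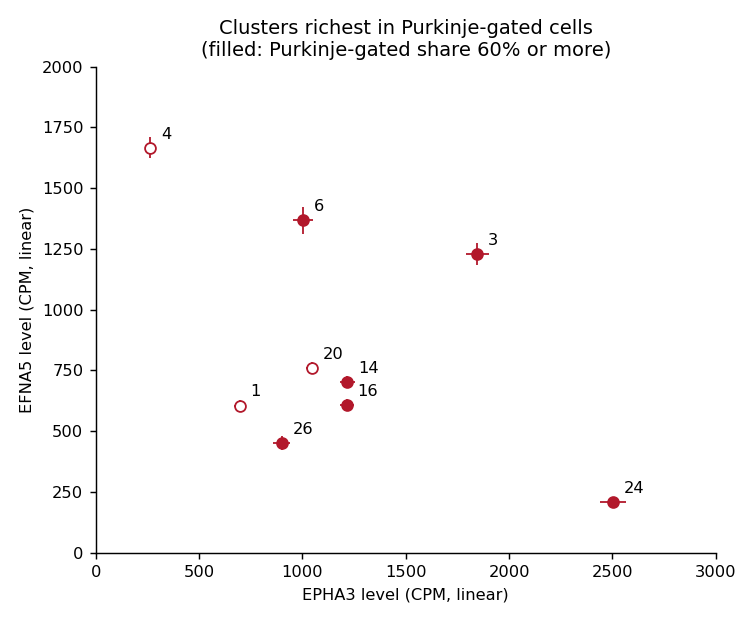
EFNA5 against EPHA3, both as levels in CPM on linear axes from 0, in the 9 clusters richest in Purkinje-gated cells; filled points are clusters in which at least 60% of cells were Purkinje-gated, and bars are exact 95% Poisson intervals. Cluster 24 lies at high EPHA3 (2503 CPM) and low EFNA5 (207.9 CPM), and cluster 4 at the other corner (261.5 and 1667 CPM). Cluster 3 is high in both (1846 and 1228 CPM).

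Within a single cluster the pairing of EPHA3 with EFNA5 was mixed. The EPHA3 share was lower in Purkinje-gated cells with EFNA5 than without in clusters 1 (30.23% against 50.47%), 3 (56% against 79.85%), 6 (33.93% against 53.73%), 14 (35.11% against 63.79%) and 16 (43.42% against 65.17%). In clusters 4 (13.81% against 12%), 20 (63.93% against 67.8%), 24 (90.24% against 85.55%) and 26 (36.92% against 41.7%) the shares lay within 5 points of each other. These shares were summed over stages.

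Purkinje cell diversity was approached through 4 genes that mark subsets of Purkinje cells and are no members of the family, by setting cells with a UMI of the gene against those without. At E7, NR2F2, a nuclear receptor, was found in 551 of the 2222 Purkinje-gated cells. Cells with it held EPHA5 at 2825 CPM against 1590 CPM in those without (log2 ratio 0.83) and EPHA7 at 402.4 against 220 (0.87). They held less EFNA5, at 462.4 against 738.4 CPM (-0.68), and less EPHA4, at 406.7 against 511.9 (-0.33). None of 6 members passed 2-fold in either direction, where 0.948% of 9603 genes were higher and 0.26% lower. Cells with NR2F2 were the deeper ones, at a median of 6894 UMIs against 5403.

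Cells with CDH6, a classical cadherin, held more EPHA3 at E7, at 1349 against 1021 CPM (log2 ratio 0.40), and more EPHA4, at 547.4 against 406.9 CPM (0.43). They held less EPHA5 (-0.45) and less EFNA5 (-0.41). None of 6 members passed 2-fold here either, where 0.417% of the genes were higher and 0.0729% lower. Cells with NR2F2 alone and with CDH6 alone, 353 and 682 in number, had like depths, at medians of 5806 and 5883.5 UMIs. Among the 6 members with 100 or more UMIs EPHA5 differed most between them, at 3666 against 1449 CPM, 2.529-fold higher with NR2F2 (log2 ratios of 1.39 and 1.30 in the sublibraries). EPHA7 was at 410.2 against 225.4 CPM (0.86), and EPHA4 at 320.7 against 587.1 (-0.87). This made 1 of 6 members higher by 2-fold or more, against 1.16% of 7358 genes, and 0 lower, against 1.33%.

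With E8 and E9 summed, the subset marked by NR2F2 looked different. Its 207 cells held less EPHA5 than the 501 without, at 845.2 against 1127 CPM (log2 ratio -0.42), and more EFNA5, at 1203 against 775.8 (0.63), both opposite in sign to E7. EPHA3 was at 957.5 against 1502 CPM (-0.65). CDH6 cells kept more EPHA4 (log2 ratio 0.72) and more EPHA3 (0.47), and held more EFNA2 (0.80). PCDH10, a protocadherin, split 185 from 523 cells with EFNA5 at 0.44 and EPHA5 at -0.42, and 0 of 6 members passed 2-fold, where 1.32% of 3795 genes were higher and 2.24% lower. In the 96 cells with FOXP1, a transcription factor, EPHA7 stood at 583.7 CPM against 1026 in the 612 without (-0.81). A lack of a UMI in a shallow cell does not show that the gene is off, so these splits are between cells enriched and depleted for the gene. The later splits sum E8 and E9, where EFNA5 stood at 1164 and 568.1 CPM in Purkinje-gated cells. A difference in stage mix between their sides cannot be told apart from a difference between subsets.

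EFNA5 is the only member on the Z chromosome, of which male birds carry a pair and females a single copy beside W. The summed level of 4 W-linked genes (HNRNPKL, SMAD7B, SPIN1L and UBAP2L2, listed after their stage values had been seen) in Purkinje-gated cells was 3.06, 152.8, 2.97 and 35.66 CPM from E6 to E9. The share of UMIs from 605 other Z genes was 5.908%, 4.526%, 5.887% and 4.896% at the same stages. W transcripts were thus nearly absent at the 2 stages where EFNA5 and the Z share in Purkinje-gated cells were higher. Within E7, cells with at least 2 W UMIs (578) held EFNA5 at 575.1 CPM against 728.5 CPM in 1117 cells with none, a log2 ratio of -0.34 (-0.40 to -0.28), and the summed other Z genes had -0.34 too. The side with none was limited to deeper cells, at 3000 UMIs, so 1117 is not the count of all cells without a W UMI. The members on other chromosomes, without the scarce EPHA8, ran from -0.16 (EFNA2) to 0.39 (EPHA7, 0.30 to 0.49) in this split. Its sides differed in depth, at medians of 7286.5 UMIs with W and 5602 without. EFNA5 at E6 over E7 was 0.44 in Purkinje-gated cells, where the median was 0.17 over 386 Z genes and -0.21 over 9417 other genes. In radial cells of E7 the W split gave -0.06 for EFNA5 and -0.39 for other Z genes. There the members on other chromosomes, without EPHA8, ran from -0.16 (EPHA3) to 0.80 (EPHA5), with EPHA7 at 0.53. Some of them thus moved further than the Z genes. The sides of the radial split differed more in depth, at medians of 9946 UMIs with W and 5525 without. The part of this difference between pools in the EFNA5 course was not tested beyond these values.

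**Figure D5:**
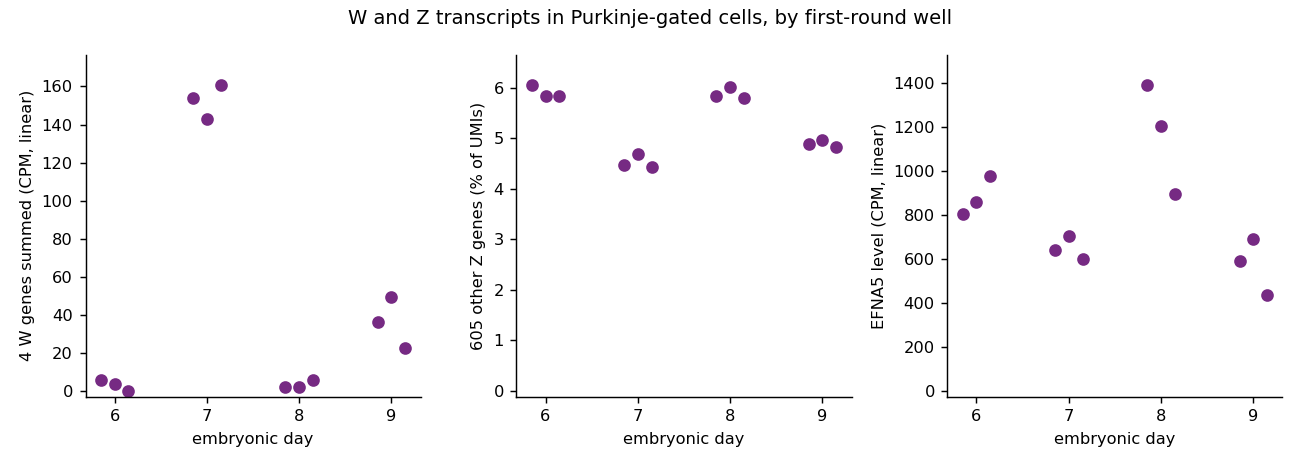
Panels over E6 to E9 (horizontal axis) with 1 point per first-round well of Purkinje-gated cells, showing the summed level of 4 W genes in CPM, the percent of UMIs from 605 other Z genes and the level of EFNA5 in CPM. W genes are high at E7 (152.8 CPM summed) where the Z share is lowest (4.526%).

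Other genes of the family were followed from a list of 16 Eph and ephrin genes, of which 9 had an entry. Over all stages, 2 of these 9 were 2-fold or more higher in Purkinje-gated than in other cells and 3 were 2-fold or more lower, where 2.98% and 19.4% of all genes were, with a median log2 ratio of -0.05 against -0.23 over all genes. EPHA6 had the larger of the higher ratios with 1813 against 606.3 CPM (1.58), and it was highest in Purkinje-gated cells of all classes. EPHA1 followed at 3.331 against 1.371 CPM (1.28). The lower ones were EPHA2 (-1.95), EPHB6 (-1.43) and EPHB1 (-1.34), while EPHB2 stood at -0.05, EPHB3 at 0.46 and EFNB2 at -0.89.

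From E6 to E9, 5 of these other Eph and ephrin genes could be compared in Purkinje-gated cells. None was 2-fold or more higher and 1 was lower, EFNB1, a transmembrane ligand of EphB receptors, at 63.02 against 202 CPM (log2 ratio -1.68), where 9.24% and 9.9% of all genes were higher and lower. EPHA6 went from 926.1 to 1784 CPM (0.95). EPHB2 had a log2 ratio of -0.50, EFNB2 of -0.20 and EPHB6 of 0.0037.

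Of 30 genes listed for their place in Eph signalling, 25 had an entry and 19 could be compared between E6 and E9. NTRK2, a neurotrophin receptor kinase, was 2-fold or more higher at 343.3 against 82.63 CPM (log2 ratio 2.06), as was VAV3, a guanine nucleotide exchange factor, at 191.6 against 86.92 CPM (1.14). NTRK2 also lies on Z. The neurotrophin receptor NGFR was lower, at 14.93 against 68.55 CPM (-2.20), and so was the kinase SRC, at 25.71 against 64.27 (-1.32). These were 2 of 19 in each direction, against 9.24% and 9.9% of all genes. Next came SIPA1L1 (0.61) and PTPN11 (0.46, interval including 0) among the higher genes and ACP1 (-0.87) and VAV2 (-0.81) among the lower, and the median of the 19 was -0.16. Between Purkinje-gated and other cells 0 of the 25 were 2-fold or more higher and 2 were lower, against 2.98% and 19.4% of all genes: the exchange factor ARHGEF16 (-1.41) and the kinase YES1 (-1.28).

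Genes whose profile over cell types and stages was most like that of a member were sought over 22 pools of at least 50 cells among 13520 genes, by Pearson's r of log2(CPM + 5). The pools share stages and sublibraries, so r is a description. EPHA5 was closest to RNF26 (0.93) and WRN (0.871), and EFNA2 to DPYSL4 (0.91), TP53I11 (0.908) and FRMD4B (0.905). EPHA8 was closest to MYLK4 (0.914) and STC2 (0.912), and EPHA4 to ASIC2 and SSTR2 (both 0.856). The closest genes to EFNA5 were APBB2 (0.85) and KIAA1549 (0.809), to EPHA7 SEMA3D (0.848) and PANX2 (0.844), and to EPHA3 UNC5C (0.751) and SORCS2 (0.75). EPHA3 thus had the weakest best match of the 7.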

How the data were processed

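The authors deposited 1 table of UMI counts per cell and gene, with a cell table giving stage, and a gene table. Per the labels' protocols the kit was Evercode WT Mini, and per the file headers the gene models were those of GRCg7b; the submitters' processing notes name Cell Ranger and Seurat with no role or version. Reads per UMI were 1.19, and the matrix matched the cell table in 100% of cells. No cell filter was added (the lowest cell held 615 UMIs). All 7 members matched the RefSeq table by symbol.

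The members, lists and gates were chosen with earlier results of these data known, and some lists start from earlier work on them. The gate was settled after 3 versions had been looked at in tables showing the members' levels. The split of EPHA3 by EFNA5 and the W genes were chosen after values were seen. "Other cells" include cells passing no gate or several.

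A marker counted as on at 2 times its CPM over all cells; gates needed 3 Purkinje, radial, endothelial or mural markers, 2 for granule (with PAX6, NEUROD1 or BARHL1), glutamatergic nuclear, ROBO3 (ROBO3 itself included), microglial or erythroid cells, and at least 2 UMIs and 1000 CPM of PAX2. Dividing cells had 3 of 8 cell-cycle markers on. Levels are summed UMIs in CPM with exact Poisson intervals, shares have Clopper-Pearson intervals, ratios have exact intervals from the binomial split of UMIs, and a count of 0 was read as up to 3 counts; all cover counting error only. Ratios over all genes needed 100 UMIs in the cells compared, and "2-fold" is a size, not a test. Thinning to 1000 UMIs left out 280 shallower cells, 20 of them Purkinje-gated. Clusters came from 2000 variable genes (1997 used after leaving out members) in 20 bins, 30 components, 15 neighbours and Leiden resolution 1. The ratio step was tested on simulated data. Named genes are the members, all other Eph and ephrin genes found, the signalling genes past 2-fold, the 5 listed genes furthest up and the 5 furthest down from E6 to E9, and up to 3 genes most like each member; matches that have only an identifier are not printed. Alternatives changed the gate, depth, scaling, sublibrary, well, comparison cells and stage. Work was done in Python 3.11.15 with scanpy 1.11.5, leidenalg 0.10.2, igraph 0.11.9, matplotlib 3.10.9, scipy 1.17.1, numpy 2.4.6 and pandas 2.3.3.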

Additional observations from a re-analysis of the deposited data

Results flagged for a closer look

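Between E6 and E9 2 members moved in opposite directions in different cell classes, in every first-round well of the stages compared, and these differences between classes were not tested. On the log2 scale, E9 over E6 was 1.52 for EPHA3 in glutamatergic nuclear cells against -0.76 in Purkinje-gated and -0.66 in radial cells. EPHA7 had 3.03 in Purkinje-gated cells and -1.33 in radial cells. With clusters in place of gates the EPHA3 ratio in glutamatergic nuclear cells was 0.49, it was 0.77 in sublibrary 1 and 2.01 in sublibrary 2, and with 1 fewer marker it was 2.13. The EPHA7 ratio in radial cells was -0.91 with 1 more marker.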

How the results depend on the processing

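Values here are log2 ratios unless called counts or given in CPM. For E9 over E6 in Purkinje-gated cells, the direction of EPHA3, EPHA5, EPHA7 and EFNA2 held under each alternative run, while EPHA4 and EFNA5 crossed 0 under some. Requiring 1 more marker gave 3.44 for EPHA7, and 1 fewer marker -2.58 for EPHA5 and -0.37 for EFNA5. Gating on thinned counts gave 3.26 for EPHA7. Clusters in place of gates gave -0.43 for EPHA3, 0.031 for EPHA4, -2.13 for EPHA5 and 2.79 for EPHA7. Relative to the median gene, which stood at -0.22, EPHA3 had -0.53, EPHA4 0.058, EPHA5 -2.55, EPHA7 3.25 and EFNA5 -0.40. With E8 in place of E9, chosen after seeing the data, EPHA3 had -0.58, EPHA5 -2.68, EPHA7 2.65, EFNA2 -0.77 and EFNA5 0.41. Leaving out 1 sublibrary or 1 well at a time gave -0.91 to -0.67 for EPHA3, -2.96 to -2.64 for EPHA5, 2.73 to 3.32 for EPHA7 and -0.82 to -0.44 for EFNA5, and leaving out 1 sublibrary gave counts of 241 to 252 genes 2-fold or more higher and 244 to 280 lower, from fewer genes compared. EPHA8 has no such ratio, with 0 UMIs at E6. The other alternatives added after seeing the data were cells without a W transcript and cells without barcodes found in both sublibraries, and neither moved an E9 over E6 ratio by more than the counting interval. Leaving out cells with a W transcript removed few Purkinje-gated cells of E6 and E9, so it could hardly move a ratio.

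For Purkinje-gated over other cells, 1 more marker gave 0.41 for EPHA3, 0.98 for EPHA5 and -0.42 for EFNA5, and 1 fewer marker 0.45 for EPHA4, 1.09 for EPHA5, -0.21 for EPHA7, 0.53 for EFNA2 and -0.33 for EFNA5. A gate on thinned counts gave 0.42 for EPHA3 (0.415), 0.50 for EPHA4, 0.92 for EPHA5, 0.0069 for EPHA7, -1.19 for EPHA8 and 0.49 for EFNA2. EPHA5 was thus past 2-fold under some of these settings only. Clusters gave 0.16 for EPHA3, 0.43 for EPHA4, 1.42 for EPHA5, -0.24 for EPHA7 and -0.11 for EFNA5. Other neurons as the comparison gave 0.65 for EPHA3, 0.74 for EPHA4, 1.06 for EPHA5, -0.78 for EPHA7, -2.58 for EPHA8 and -0.62 for EFNA5, with a count of 1253 genes 2-fold or more lower in place of 2983. Relative to the median gene, at -0.23, they were 0.60 for EPHA3, 0.77 for EPHA4, 1.34 for EPHA5, -0.046 for EPHA7, 0.90 for EFNA2 and -0.14 for EFNA5. At E6 alone the ratios were 1.51 for EPHA3, 0.67 for EPHA4, 1.93 for EPHA5, -1.56 for EPHA7, 0.18 for EFNA2 and -1.52 for EFNA5, with a count of 1327 genes lower. At E7 alone they were 0.24, 0.39, 0.81, -0.43, 0.60 and -0.13 in the same order, with -0.066 for EPHA8 and a count of 295 genes higher in place of 458. At E8 alone they were 0.19, 0.75, 1.15, 0.41, 1.30 and 0.17, and at E9 alone 0.48, 1.34, 1.59, 0.75, 0.75 and -0.25. Leaving out 1 sublibrary gave 0.32 to 0.42 for EPHA3, 1.05 to 1.16 for EPHA5 and -0.31 to -0.24 for EPHA7.

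The cause of these differences was not tested. Of the levels by class and stage, 26 of 154 moved by over 1.5-fold with clusters in place of gates, 18 of 147 on thinned counts, 17 of 147 with 1 fewer marker and 9 of 147 with 1 more. EFNA5 in PAX2 cells of E7 went from 908.3 to 225.7 CPM and in radial cells of E6 from 1738 to 2991 CPM with clusters. Among subset ratios, 3 changed sign, all of EPHA8 at E8 and E9, where it has few UMIs. These were its ratio in the CDH6 split without replicate 1 (-0.15) and with 1 more marker (-0.48), and in the FOXP1 split with 1 fewer marker (-0.0073). The gate kept 2313 Purkinje-gated cells with 1 more marker, 3086 with 1 fewer, because more cells then passed several gates, and 2582 on thinned counts. No paired analysis was possible because the labels give 1 group, with no second group to pair with. Depth limits EPHA8 most, and the EFNA5 and EFNA2 shares at E9, where 277 Purkinje-gated cells were found.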
